A study of Mus musculus with 14 samples.

Results

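Peeled esophageal epithelium of aged mice was compared with that of young mice, across every gene that could be tested. The samples were chosen by the layer and age in their labels, which gave 9 epithelial samples of the 14 bulk RNA-Seq samples in the series, 5 aged and 4 young, each from a different mouse. All 9 mice were wild-type C57BL/6 animals, and the labels name no transgene or treatment. The series design places aged mice at 18 months or more and young mice at 4 months or less. Sex is labelled male for OM8 and YM4, female for YF5 and is not given for the other 6. The muscle had been peeled off, so the RNA is that of a whole sheet enriched for epithelium and not of sorted cells. The 5 stromal samples were used only to check the layer. Reads had been counted per gene by the authors, and the depth of each library is given below with the first values.

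Esophageal epithelium is a stratified squamous tissue. Basal cells on the basement membrane divide, express Krt5 and Krt14, and give rise to cells that switch to Krt4 and Krt13 as they move upward, and that in mice form a cornified surface from crosslinked proteins such as loricrin, small proline-rich (Sprr) and late cornified envelope (Lce) proteins. In many tissues, age is known to come with more immune cells and immunoglobulin RNA, altered matrix, p53 and senescence markers, and shifts in mitochondrial RNA, and each of these has its own genes in the lists below.

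The mouse codes have 2 forms. Aged mice O1, O2 and O3 and young mice Y1 and Y3 carry plain codes, and aged mice OF5 and OM8 and young mice YF5 and YM4 carry codes with a letter F or M. What the forms stand for is not given in the sources used here, and every comparison of age was therefore fitted with the form as a covariate and repeated within each form. Total counts ranged from 16477424 to 21867101 in the 5 plain-code libraries and from 8217516 to 9399448 in the 4 letter-code libraries. Counts of protein-coding genes ranged from 7971213 to 11067219 and from 1042388 to 1433837, so a value from a letter-code mouse rests on far fewer counts. A ribosomal RNA fragment gene, CT010467.1, took from 10.4% to 23.3% of plain-code counts and from 63.9% to 73.9% of letter-code counts. The form itself separated many genes: 2225 of 15859 tested genes (14%) passed an adjusted p of 0.05 between the forms, 1067 higher and 1158 lower in letter-code mice.

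The layer was as labelled. Krt13 ranged from 6589 to 25666 normalized counts (CPM, the counts of a gene scaled to the same adjusted library size in every sample) in the 9 epithelial samples and from 13.3 to 187 CPM in the 5 stromal samples, on 1 scale over both layers. The summed level of 22 skeletal muscle genes ranged from 174 to 1937 CPM in epithelium and from 43977 to 78285 CPM in stroma. All 3 Y-linked genes of the sex list were above 1 CPM in 3 of 5 aged and 2 of 4 young mice, so both sexes were present at each age and in each form.

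Of 15859 genes tested, 2 passed the adjusted p of 0.05 (0.0126%). These were Rps4l, which fell in aged epithelium, and Espn, which rose. At an unadjusted p under 0.05 there were 509 genes (3.21%), of which 229 (1.44%) were higher and 280 (1.77%) lower in aged mice. The levels of aged and young mice did not overlap for 106 genes that were higher in all 5 aged mice (0.668%) and for 102 that were lower in all 5 (0.643%). The median log2 fold change over all genes was -0.0033, and 7849 genes were above 0.

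Rps4l is a copy of the X-linked ribosomal protein gene Rps4x that lies without introns on chromosome 6 (148354656 to 148355598, plus strand, GRCm38), and the GENCODE M21 annotation lists it as a transcribed processed pseudogene. A stretch of the coding part of Rps4x and the matching stretch of Rps4l are printed because they show how far reads of one can be told from reads of the other. Both run 5′ to 3′ from base 484 to base 603 of the coding part, were read from GENCODE M21 transcripts, and hold the 120 bases with the most differences, which are in capitals.
Rps4x: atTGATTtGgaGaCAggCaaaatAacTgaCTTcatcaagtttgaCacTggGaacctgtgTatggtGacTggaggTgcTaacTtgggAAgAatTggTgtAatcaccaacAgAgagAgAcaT
Rps4l: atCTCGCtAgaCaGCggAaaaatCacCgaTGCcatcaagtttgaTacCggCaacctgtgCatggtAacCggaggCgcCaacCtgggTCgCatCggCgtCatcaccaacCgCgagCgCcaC
These stretches differ at 35 of 120 bases. Over the whole 789 bases, the copies aligned without a gap, differed at 161 bases and were 79.6% identical, and the longest run of identical bases was 35. The 263 codons of the Rps4l copy start with ATG and hold 1 stop codon, at position 263.

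Rps4l was lower in every aged mouse than in every young mouse. It had 0.963, 1.48 and 1.15 CPM in O1, O2 and O3 and 0.596 and 0.396 CPM in OF5 and OM8, against 6.02 and 5.26 CPM in Y1 and Y3 and 4.57 and 2.76 CPM in YF5 and YM4. The means were 0.918 ± 0.434 CPM in aged mice (SD, n = 5) and 4.65 ± 1.39 CPM in young mice (SD, n = 4). On the log2 scale aged mice differed from young mice by -2.33 (standard error, SE, 0.27), with an adjusted p of 0.000941 by the quasi-likelihood test of edgeR. It was -2.23 within the plain codes. Behind these values are 37 to 66 counts in the aged and 211 and 227 counts in the young plain-code mice, but 2 and 2 counts in the aged and 13 and 9 counts in the young letter-code mice. For the letter codes, the ratio of summed normalized counts, aged over young, was 0.132, with an exact 95% interval of 0.0330 to 0.388 that covers counting error only. The parent gene Rps4x, which encodes a protein of the small ribosomal subunit, had 31.8 ± 9.79 CPM in aged mice (SD, n = 5) and 31.5 ± 9.14 CPM in young mice (SD, n = 4), with overlapping ranges and a log2 fold change of -0.07 (SE 0.13). Among the 81 cytosolic ribosomal protein genes tested, a list that holds Rps4l, Rps4l was the 1 gene that passed, beside 0.0126% of all genes. The median log2 fold change of the list was -0.02.

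Espn encodes espin, a protein that bundles actin filaments, known from the stereocilia of hair cells and from microvilli. The gene lies on chromosome 4 (152120331 to 152152371, minus strand). Its levels were 10.3, 8.56 and 10.9 CPM in O1, O2 and O3 and 12.5 and 12.9 CPM in OF5 and OM8. In the young mice they were 4.64 and 4.31 CPM in Y1 and Y3 and 4.92 and 5.53 CPM in YF5 and YM4, so the groups did not overlap in either form. The means were 11.0 ± 1.75 CPM in aged mice (SD, n = 5) and 4.85 ± 0.516 CPM in young mice (SD, n = 4), or 1.19 on the log2 scale (SE 0.17), and the adjusted p was 0.00768. Within the plain codes it was 1.15 and within the letter codes 1.31. Among the 12 actin-bundling genes tested, a list that holds Espn, Espn was the 1 gene that passed, beside 0.0126% of all genes. The median log2 fold change of the list was 0.03.

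The calls depended on single plain-code mice. Without young mouse Y1, neither gene passed (adjusted p = 0.0583 for Rps4l and 0.101 for Espn), and Espn did not pass without O1 (adjusted p = 0.0636) or without Y3 (adjusted p = 0.0689). In the 4 letter-code mice alone neither passed, with adjusted p-values of 0.447 and 0.387, and in the 5 plain-code mice Rps4l passed (adjusted p = 0.00663) and Espn did not (adjusted p = 0.0513). Without the form as a covariate the adjusted p-values were 0.129 and 0.140. The direction was the same in each of these fits, which share mice with the fit that chose both genes.

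The genes ranked next did not pass the adjusted threshold, and are given as values. Sdc3, Tmem30b, Vgll3 and Hoxc8 were chosen after their values were seen. Sdc3, which encodes the heparan sulfate proteoglycan syndecan-3, had 21.2, 18.6, 19.3, 20.3 and 16.0 CPM in O1, O2, O3, OF5 and OM8. Its levels in Y1, Y3, YF5 and YM4 were 8.56, 9.97, 12.3 and 12.0 CPM. The groups did not overlap, and the log2 fold change was 0.91 (SE 0.15, adjusted p = 0.0552). It was 1.09 within the plain codes, where it passed (adjusted p = 0.02), and 0.61 within the letter codes. Tmem30b, which encodes a subunit of phospholipid flippases, ranged from 2.09 to 3.76 CPM in aged and from 5.97 to 8.6 CPM in young mice (log2 fold change -1.09, SE 0.21, adjusted p = 0.122). Vgll3, a cofactor of TEAD transcription factors, ranged from 2.68 to 5.24 CPM in aged and from 7.42 to 9.84 CPM in young mice (log2 fold change -1.07, SE 0.21, adjusted p = 0.124). The homeobox gene Hoxc8 overlapped between the ages, with 7.52 to 17.3 CPM in aged and 1.05 to 8.80 CPM in young mice (log2 fold change 1.10, adjusted p = 0.142). Its lowest value, in YF5, rests on 3 counts. In all, 12 genes had an adjusted p under 0.2, and all 12 had the same sign in both forms. They were chosen by the fit over both forms, which favours genes of 1 sign. Their shared sign is therefore no measure of agreement between the forms.

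**Figure D1:**
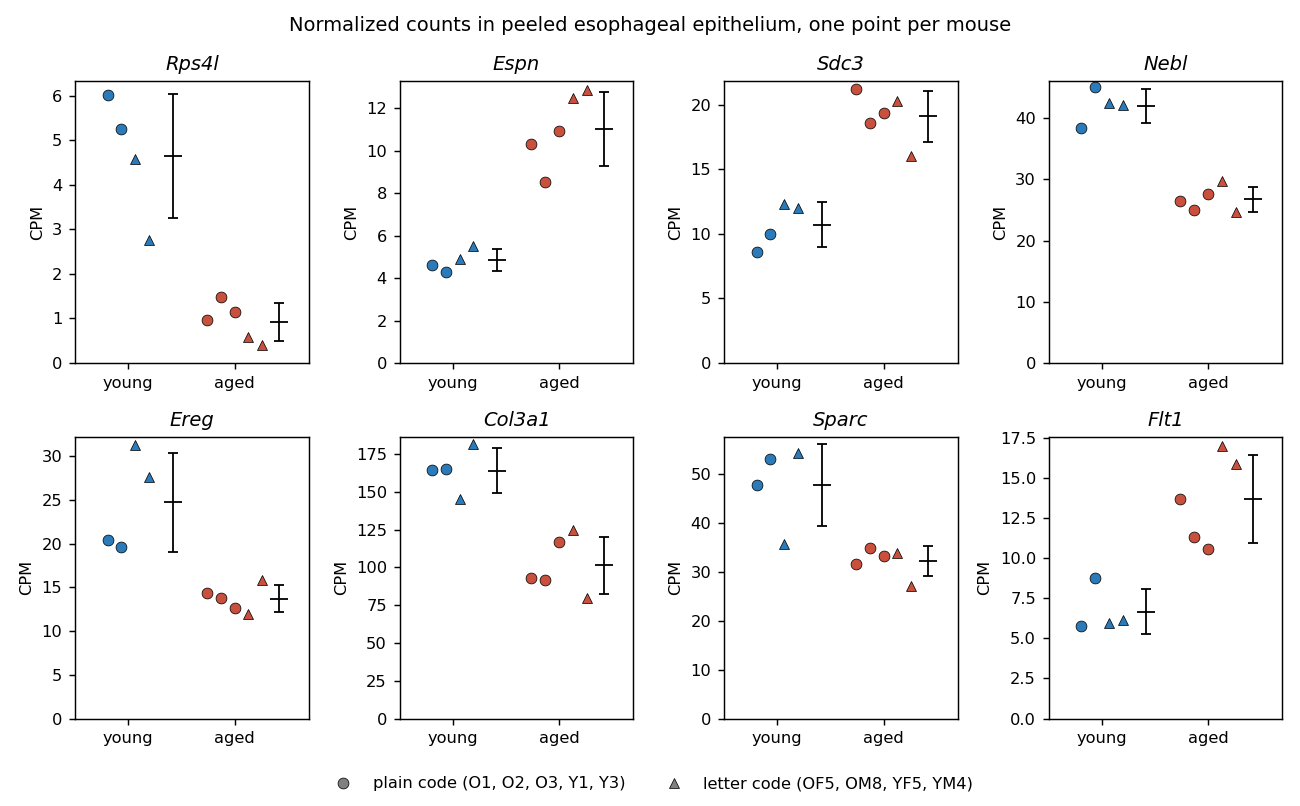
Normalized counts (CPM, linear axes from 0) of 8 genes in young (blue) and aged (red) epithelium, 1 point per mouse, circles for plain and triangles for letter codes, with the mean and SD of each age beside the points. Rps4l and Espn passed the adjusted threshold, and for each of the 8 genes the 5 aged mice lie on 1 side of the 4 young mice, closest for Sparc (35.0 against 35.8 CPM).

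Average log2 CPM was 4 to 6 for 2567 tested genes, 6 to 8 for 470 and at least 8 for 81. Among these genes of 4 or more, 14 were higher and 26 lower in aged mice without overlap and with 1 sign in both forms. Over all genes tested, 0.668% were higher and 0.643% lower without overlap. The 10 of each direction with the smallest unadjusted p are described here. None passed the adjusted threshold over all genes.

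The 10 lower genes were led by Nebl, Ereg, Col3a1 and Sparc. Nebl encodes nebulette, an actin-binding protein related to nebulin. It had 26.5, 25.1, 27.6, 29.8 and 24.7 CPM in O1, O2, O3, OF5 and OM8 and 38.4, 45.0, 42.5 and 42.1 CPM in Y1, Y3, YF5 and YM4. Its log2 fold change was -0.65 (SE 0.12, adjusted p = 0.101), with -0.66 in the plain and -0.60 in the letter codes. Ereg encodes epiregulin, a ligand of the epidermal growth factor receptor. It had 14.4, 13.8, 12.6, 11.9 and 15.8 CPM in the aged mice in that order and 20.5, 19.6, 31.3 and 27.6 CPM in the young mice. The log2 fold change was -0.75 (SE 0.14, adjusted p = 0.122), and the 2 young letter-code mice were above the young plain-code mice.

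The others were a mixed group. Serpinb3a, a serine protease inhibitor of squamous cells, had 324, 354, 352, 232 and 211 CPM in aged and 406, 432, 459 and 498 CPM in young mice (log2 fold change -0.66, SE 0.16, adjusted p = 0.381). The difference was larger in the letter codes (-1.08, adjusted p = 0.0370 there) than in the plain codes (-0.29), and the adjusted p of that difference in effect was 0.472. Serpinb3a belongs to a family of near-identical neighbours, and the authors' counting may have split or dropped reads they share. Fmo2, a flavin-containing monooxygenase, ranged from 72.2 to 140 CPM in aged and from 141 to 175 CPM in young mice, with log2 fold changes of -0.33 in the plain and -1.02 in the letter codes. Abcg1, a cholesterol exporter (-0.49), Ube2h, a ubiquitin-conjugating enzyme (-0.41), and Zfand6, a zinc finger protein (-0.46), had smaller differences, with adjusted p-values from 0.821 to 0.848.

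The 10 higher genes had smaller differences. Ank, which encodes a pyrophosphate transporter, had 86.9, 92.8, 76.2, 86.1 and 64.7 CPM in aged mice and 62.2, 62.1, 53.4 and 61.1 CPM in young mice (log2 fold change 0.43, SE 0.13). The semaphorin co-receptor gene Plxna1 followed with 0.36, the lysosomal protective protein gene Ctsa with 0.38 and the carboxylesterase gene Ces1d with 0.33. The remaining 6 were Camsap2, a microtubule minus-end protein (0.31), Nhsl1 (0.27), Prom2 (0.25), Fkbp15 (0.31), the histone deacetylase gene Hdac5 (0.27) and Fnbp1 (0.25). Hdac5 and Fnbp1 had unadjusted p-values of 0.0560 and 0.0735, so lack of overlap is not the same as a small p. Exons of 8 of the 22 genes named so far by rule overlap exons of another gene, among them Ctsa with Pltp and Neurl2 on the other strand. Reads from the pair could be mixed, because the strand setting of the counting is not given in the sources used here.

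**Figure D2:**
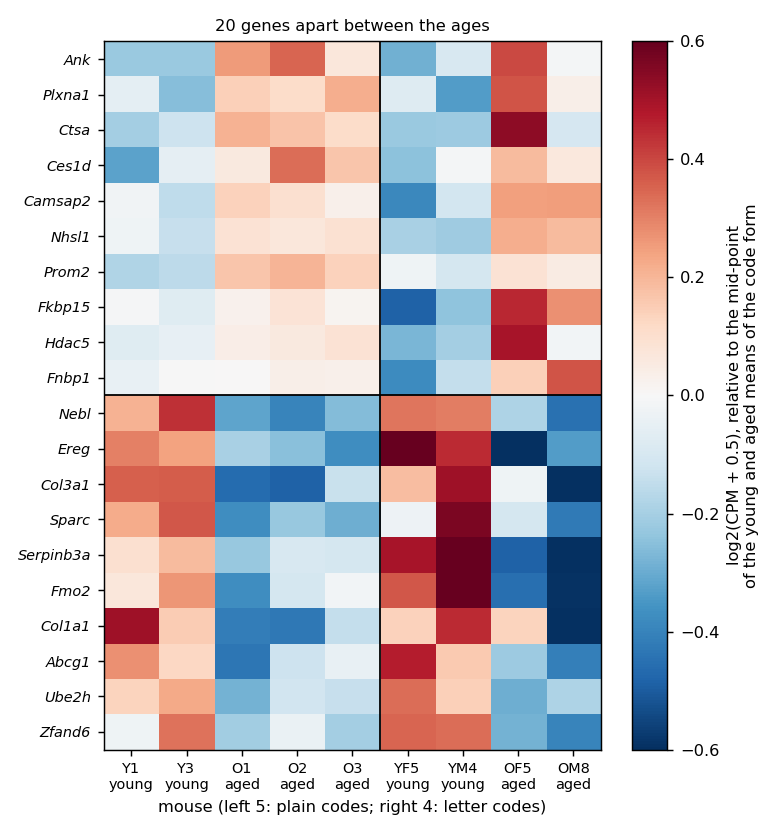
Heat map of the 20 genes without overlap, 10 higher (upper block) and 10 lower (lower block), in log2(CPM + 0.5), each value relative to the mid-point between the young and the aged mean of the mouse's own code form. Colours run from -0.6 (blue) to 0.6 (red), with the 5 plain-code mice on the left and the 4 letter-code mice on the right. Serpinb3a and Fmo2 are paler in the plain than in the letter codes, and Ctsa and Hdac5 are darkest in OF5.

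Genes of the squamous program came next, in the order of the layers. These lists and those below were chosen with earlier results of these data known. A share of a list beside that of all genes is therefore a description and no independent support. Across 16 marker genes of basal and upper cells (among them Cnfn, Krt4, Krt5, Krt13, Krt14 and Mki67), 0 passed the adjusted threshold. Of the 16, 1, Cnfn, had an unadjusted p under 0.05, beside 3.21% of all genes. Their log2 fold changes ran from -0.35 to 0.50. Krt5 had 653, 642, 724, 233 and 243 CPM in O1, O2, O3, OF5 and OM8 and 655, 421, 274 and 492 CPM in Y1, Y3, YF5 and YM4. The 2 aged letter-code mice were lowest, the ages overlapped, and the log2 fold change was -0.14 (SE 0.23). Krt14 was -0.35 (SE 0.17), with -0.03 in the plain and -0.71 in the letter codes. Mki67, which marks cycling cells, ranged from 55.4 to 89.0 CPM in aged and from 41.5 to 111 CPM in young mice (log2 fold change -0.14). The 20 basal genes tested, which add basement membrane and hemidesmosome genes, had a median of -0.08 (0.11 in the plain and -0.08 in the letter codes). Among them 1 had an unadjusted p under 0.05 (5% beside 3.21% of all genes). It was the anchoring fibril collagen gene Col7a1 (log2 fold change 0.46, SE 0.18). No member of that list passed the adjusted threshold. On the scale over both layers this list summed to between 1575 and 3891 CPM in epithelium and between 2483 and 3641 CPM in stroma, so its sum did not separate the layers, unlike Krt5 at 251 to 1002 CPM against 1.03 to 13.9 CPM.

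Differentiation genes leaned lower. Of 49 genes of differentiation and the cornified envelope, 15 were lower and 2 higher at an unadjusted p under 0.05, which is 34.7% of the list beside 3.21% of all genes, and 39 of 49 had a log2 fold change below 0. The median was -0.24, and none passed the adjusted threshold (lowest adjusted p 0.846). The lower genes were the small proline-rich genes Sprr1a and Sprr1b, 4 late cornified envelope genes (Lce3a, Lce3b, Lce3d and Lce3f), the kallikrein proteases Klk7, Klk13 and Klk14, the surface proteins Rptn and Hrnr, Asprv1, Serpinb12, Cnfn and the transcriptional repressor Prdm1. The higher genes were the transcription factor gene Ovol1 (log2 fold change 0.37) and the filaggrin family gene Flg2 (0.68). Sprr1b had 24.2, 21.6, 30.6, 19.7 and 28.7 CPM in the aged mice and 40.0, 28.8, 39.4 and 39.3 CPM in the young mice (log2 fold change -0.53, SE 0.15). Rptn, which encodes repetin, had 3718, 4696, 4826, 1923 and 1918 CPM in the aged mice and 5307, 5261, 3426 and 4508 CPM in the young mice (-0.62, SE 0.18), lowest in the 2 aged letter-code mice. Prdm1 did not overlap, with 30.4 to 41.3 CPM in aged and 44.7 to 49.5 CPM in young mice (-0.43, SE 0.13).

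The lean was larger in the letter codes, and the difference between the forms was not tested for the list. There the median of the 49 genes was -0.42, with 18 lower and 1 higher at an unadjusted p under 0.05, beside 7.37% of all genes in either direction. In the plain codes the median was -0.05, with 2 lower and 1 higher, beside 2.89% of all genes. In all, 36 of 49 genes had 1 sign in both forms, Sprr1b and Prdm1 among them. The most abundant genes of the tissue followed: Krt13 had 14014, 16223, 16320, 6667 and 5778 CPM in the aged mice and 17986, 14313, 9132 and 10483 CPM in the young mice, and Krt4 differed by -0.01 in the plain and -0.54 in the letter codes. The Sprr and Lce genes are families of similar neighbours, so their values may share reads. The part of depth, ribosomal RNA content and the composition of the letter-code libraries in this difference was not tested.

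Defence and stress genes of keratinocytes leaned the same way. Of 20 genes of epithelial inflammation and defence, 5 were lower and 0 higher at an unadjusted p under 0.05 (25% beside 3.21% of all genes), and 17 of 20 were below 0 (median -0.16). The 3 interleukin-36 cytokine genes were among them. Il1f6 ranged from 28.9 to 43.2 CPM in aged and from 42.5 to 74.5 CPM in young mice (log2 fold change -0.55, SE 0.16), and Il1f9 from 29.3 to 41.7 CPM and from 41.5 to 64.0 CPM (-0.43, SE 0.15). The beta-defensin gene Defb1 was -0.44 (SE 0.19). No member passed the adjusted threshold. Krt6a, a keratin of stressed and wounded epithelium, had 12.0, 19.2, 28.9, 7.45 and 5.15 CPM in aged mice and 57.8, 22.6, 19.3 and 18.7 CPM in young mice, with Y1 highest, overlapping ages and a log2 fold change of -1.19.

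Proliferation, p53 and protein-quality genes did not pass. Of 30 genes of G2 and mitosis, 27 were below 0 (median -0.25), and 1 had an unadjusted p under 0.05 (3.33% beside 3.21% of all genes). It was the anaphase-promoting complex partner Ube2c (log2 fold change -0.69, SE 0.26). The 29 S phase genes had a median of -0.04 and 0 with an unadjusted p under 0.05. Among 28 p53 and senescence genes, 2 were higher and 1 lower at an unadjusted p under 0.05 (10.7% beside 3.21% of all genes). The cyclin-dependent kinase inhibitor gene Cdkn2b had 3.35, 3.19, 3.15, 2.98 and 3.17 CPM in aged mice and 1.62, 2.04, 2.11 and 0.921 CPM in young mice. These groups did not overlap, and its log2 fold change was 0.87 (SE 0.26, adjusted p = 0.945). The letter-code values rest on 10 and 16 counts in OF5 and OM8 and on 6 and 3 counts in YF5 and YM4. The polo-like kinase gene Plk2 was 0.33 and the cyclin gene Ccng1 -0.40. The median of that list was 0.00.

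Heat shock genes had no member at an unadjusted p under 0.05 of 23 tested (median -0.20), beside 3.21% of all genes. In the letter codes 10 of 23 were lower and 0 higher at that threshold (median -0.48), beside 7.37% of all genes, and in the plain codes 0 were lower and 1 higher (median -0.06). The chaperone gene Hspa8 had 439, 404 and 262 CPM in O1, O2 and O3 and 528 and 196 CPM in Y1 and Y3, and 87.9 and 67.5 CPM in OF5 and OM8 against 197 and 157 CPM in YF5 and YM4. It passed within the letter codes (log2 fold change -1.16, adjusted p = 0.0155) and was 0.03 within the plain codes. The abundant chaperone gene Hsp90ab1 was -0.31 (SE 0.18). Of 29 unfolded protein response genes, 1, Creb3l1 (-0.59, SE 0.23), was lower at an unadjusted p under 0.05 (3.45% beside 3.21% of all genes). The medians of that list were 0.09 in the plain and -0.49 in the letter codes.

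Metabolic lists held few genes at an unadjusted p under 0.05, from 0% to 6.25% of a list beside 3.21% of all genes. The 36 glutathione and NRF2 target genes had 1 lower, malic enzyme Me1 (-0.32), and the 17 genes of iron handling had 1 lower, the ferritin heavy chain gene Fth1 (-0.42, SE 0.13). Cholesterol synthesis had 1 lower of 25, the sterol isomerase gene Ebp (-0.38), and barrier lipid synthesis had 1 lower of 28, the serine palmitoyltransferase gene Sptlc3 (-0.32). Among 32 autophagy and lysosome genes, Atg7 was higher (0.55, SE 0.23, no overlap) and the protease gene Ctsl lower (-0.36). The medians of these 5 lists lay between -0.08 and -0.02. They lay between -0.02 and 0.05 in the plain codes and between -0.33 and -0.11 in the letter codes. The 76 nuclear subunits of oxidative phosphorylation had 0 genes at an unadjusted p under 0.05 and a median of -0.14, with Cox6c at -0.37 (SE 0.18). The median of these subunits was -0.04 in the plain and -0.32 in the letter codes.

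Of the signalling lists, Notch and Wnt had medians above 0. The 24 Notch pathway genes had a median of 0.08 and 1 higher at an unadjusted p under 0.05 (4.17% beside 3.21% of all genes). It was the ligand gene Jag1 (0.29, SE 0.13). The 38 Wnt pathway genes had a median of 0.13 and 1 higher at that threshold (2.63%). This was the stem cell marker and receptor gene Lgr5, which had no count in some mice and for which no fold is given. Wnt5a, a non-canonical Wnt ligand, ranged from 4.34 to 5.38 CPM in aged and from 2.76 to 4.30 CPM in young mice without overlap (0.44, SE 0.22). The 31 genes of TGF-beta and BMP signalling had 0 at an unadjusted p under 0.05 and a median of -0.01. The 24 immediate early genes also had 0, with a median of -0.07.

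Clock genes included 3 higher and 1 lower of 19, at an unadjusted p under 0.05 (21.1% beside 3.21%). The clock repressor gene Nr1d2 had 5.03, 7.14, 3.84, 8.64 and 8.11 CPM in aged mice and 1.91, 3.66, 4.92 and 2.15 CPM in young mice (log2 fold change 1.03, SE 0.27, adjusted p = 0.619). The clock output gene Tef was 0.49 (SE 0.17), and the negative regulator gene Cry1 was -0.65 (SE 0.20). Signs of these 3 genes were the same in both forms. The time of day at which each mouse was killed is not given in the sources used here, so age and time of collection cannot be told apart for this list.

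Genes of other cell types in the sheet were read next. In bulk samples, fewer cells of a type and less RNA per cell cannot be told apart. Of 20 fibroblast and matrix genes, 6 were lower and 0 higher at an unadjusted p under 0.05 (30% beside 3.21% of all genes), with a median of -0.26 that was -0.32 in the plain and -0.26 in the letter codes. Col3a1, which encodes the chain of type III collagen, had 93.2, 91.6, 117, 125 and 80.0 CPM in aged mice and 165, 165, 145 and 182 CPM in young mice. Its log2 fold change was -0.70 (SE 0.15, adjusted p = 0.180). Sparc, a collagen-binding matrix protein, had 31.6, 35.0, 33.4, 34.0 and 27.1 CPM in aged mice and 47.9, 53.2, 35.8 and 54.4 CPM in young mice (-0.59, SE 0.13, adjusted p = 0.293). Col1a1, a chain of type I collagen, ranged from 42.7 to 77.7 CPM in aged and from 78.0 to 108 CPM in young mice (-0.62, SE 0.16, adjusted p = 0.622). These 3 genes were among those chosen above for lack of overlap and 1 sign in both forms. The other 3 lower genes, Col5a2, Col1a2 and Fbn1, overlapped between the ages. The summed level of the list ranged from 564 to 895 CPM in aged and from 727 to 1079 CPM in young mice, so the sums overlapped. On the scale over both layers the list summed to between 643 and 1477 CPM in epithelium and between 1046 and 2362 CPM in stroma. How much residual stroma each sheet held, and its part in the collagen differences, was not tested.

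Muscle genes varied between mice of 1 age. The 21 skeletal muscle genes tested had 0 at an unadjusted p under 0.05, and 20 of them were below 0 (median -0.96). The fitted median was 0.12 in the plain and -3.95 in the letter codes, and 7 of 21 genes had the same sign in both. The letter-code value is neither a measured size nor a bound, because many of these genes had no count in OF5. The sum of the 22 genes in the files was 404, 207, 959, 171 and 152 CPM in O1, O2, O3, OF5 and OM8 and 384, 623, 1753 and 212 CPM in Y1, Y3, YF5 and YM4. The young mouse YF5 was highest, and the ages overlapped. Ttn, the giant sarcomere protein gene, ranged from 5.36 to 226 CPM in aged and from 33.8 to 479 CPM in young mice. The 12 smooth muscle and pericyte genes had a median of -0.02. Of 13 endothelial genes, 1 was higher at an unadjusted p under 0.05 (7.69% beside 3.21% of all genes). This gene, Flt1, a receptor of vascular endothelial growth factor, had 13.7, 11.3, 10.6, 17.0 and 15.8 CPM in aged mice. In young mice it had 5.78, 8.75, 5.97 and 6.14 CPM. Its log2 fold change was 0.93 (SE 0.18, adjusted p = 0.142), while the median of the 13 genes was -0.14 and 9 of them were below 0.

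Antigen presentation genes leaned higher. Of 15 major histocompatibility complex (MHC) genes, 4 were higher and 0 lower at an unadjusted p under 0.05 (26.7% beside 3.21%), and 14 of 15 were above 0, with a median of 0.31. The median was 0.11 in the plain codes, with 1 gene higher at that threshold, beside 2.89% of all genes in either direction. It was 0.98 in the letter codes, with 6 genes higher, beside 7.37% of all genes. The same sign in both forms was found for 8 of the 15 genes. All 4 belong to MHC class II presentation, which is a feature of dendritic cells, macrophages and B cells. H2-Eb1 had 5.45, 4.74, 6.34, 10.7 and 6.53 CPM in aged mice and 1.75, 4.21, 0.703 and 5.53 CPM in young mice (log2 fold change 1.02, SE 0.35). Its lowest value, in YF5, rests on 2 counts. Cd74, the invariant chain gene, had 18.5, 20.1, 19.9, 39.3 and 31.9 CPM in aged mice and 10.2, 20.6, 11.2 and 15.4 CPM in young mice (0.72, SE 0.25), and it passed within the letter codes (1.44, adjusted p = 0.0144). H2-Ab1 was 0.67 (SE 0.27). No member passed the adjusted threshold over the 9 mice. The sum of the 18 MHC genes in the files was 211, 216, 201.7, 295 and 199 CPM in aged mice and 198, 195, 161 and 177 CPM in young mice, highest in OF5. OF5 also had the highest summed level of 14 macrophage genes (94.4 CPM, against 41.5 to 62.9 CPM in the other aged and 31.8 to 61.3 CPM in the young mice). Of 12 macrophage genes tested, 0 had an unadjusted p under 0.05 and 11 were above 0, and the 5 Langerhans and dendritic cell genes tested had 0 with a median of 0.08.

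Antibody genes were near the detection floor. Of 13 B and plasma cell genes, 3 were tested. Of these, 2 were higher at an unadjusted p under 0.05 (66.7% beside 3.21% of all genes), Igkc and Ighm. The other gene was slightly below 0 (log2 fold change -0.09). The summed level of the 13 genes ranged from 89.3 to 141 CPM in aged and from 94.5 to 132 CPM in young mice, so the sums overlapped. Igkc, the kappa light chain constant gene, had 0.394, 0.0674, 1.5, 4.17 and 0.396 CPM in aged mice and 0, 0.0748, 0 and 0 CPM in young mice, or at most 48 counts in an aged and 3 counts in a young mouse. The floor of 3 counts, which covers counting error only, corresponds to 0.0657 to 0.0936 CPM in plain-code and 0.594 to 1.05 CPM in letter-code mice, so the 0 in letter-code young mice allows levels above those of O1, O2 and OM8. Ighm, the mu heavy chain gene, had 1.03, 0.584, 2.22, 7.15 and 1.78 CPM in aged mice and 0.239, 0.548, 1.76 and 1.23 CPM in young mice (log2 fold change 1.61, SE 0.50). OF5 was highest for both. The 8 neutrophil and mast cell genes tested had 2 higher at an unadjusted p under 0.05 (25% beside 3.21% of all genes). They were Mmp9 and the mast cell tryptase gene Tpsb2, both under 2 CPM in every mouse. Interferon-stimulated genes had 0 of 31 at an unadjusted p under 0.05 and a median of 0.07. Schwann cell, adipocyte, T cell, red blood cell and sex-linked lists, with 2 to 8 tested genes each, also had 0. The 10 imprinted growth genes had 1 lower (10%), H19, which is described with the forms.

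**Figure D3:**
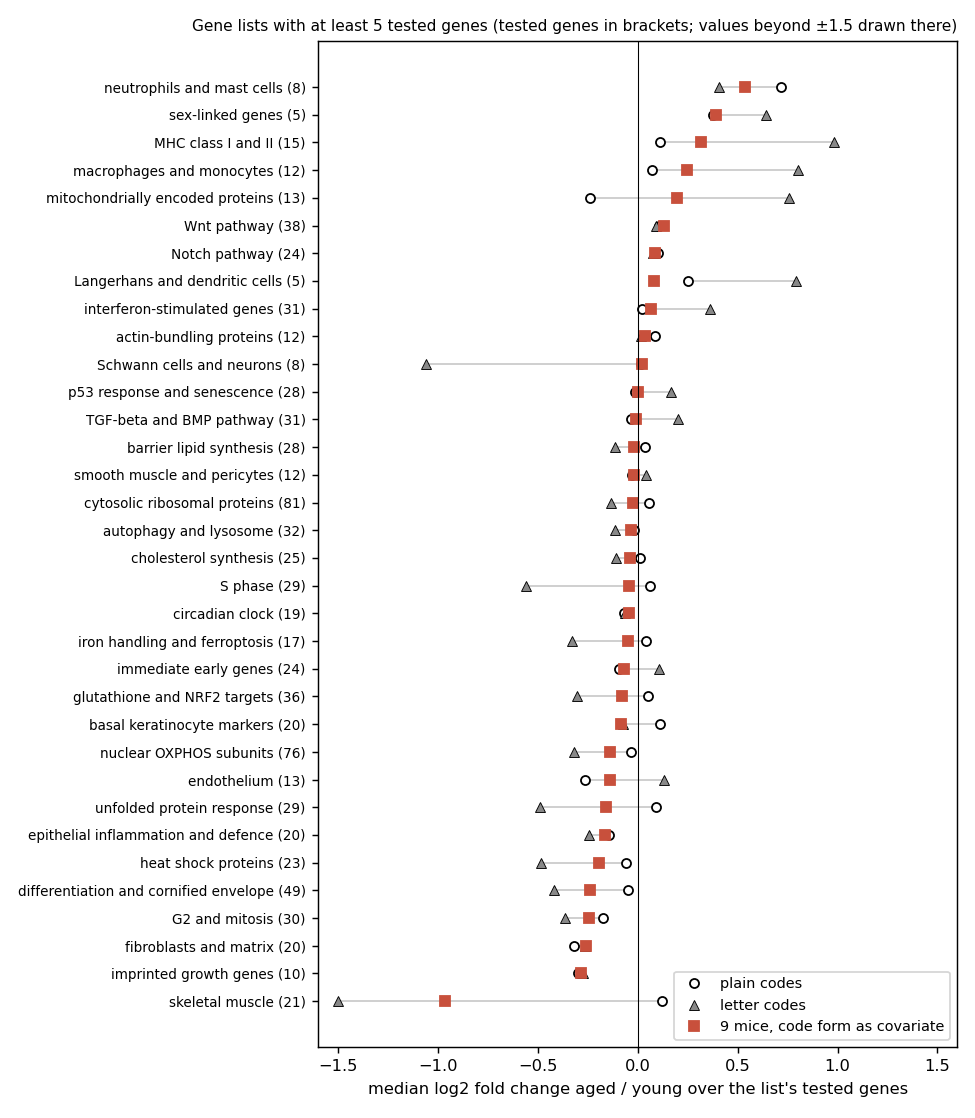
Median log2 fold change (aged over young) of 34 gene lists with at least 5 tested genes, with the number of tested genes in brackets. Squares show the fit over 9 mice, open circles the plain codes and triangles the letter codes. Values beyond -1.5 or 1.5 are drawn at that limit, which applies to the skeletal muscle list in the letter codes. Differentiation genes sit at -0.24, fibroblast and matrix genes at -0.26 and MHC genes at 0.31, and the mitochondrially encoded genes are among the 18 of 39 lists described whose medians lie on opposite sides of 0 in the forms.

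Agreement between the forms was then read across all genes. The sign of the age difference was the same in both forms for 8200 of 15859 genes, or 51.7%, and the log2 fold changes had a Pearson r of 0.01 and a Spearman rho of 0.04 across genes, which share libraries and are not independent. Genes with an average log2 CPM under 2 shared their sign in 50.2% of 7709 cases and those between 4 and 6 in 54.2% of 2567, and the 81 genes of at least 8 in 43.2%. Of the 458 genes below an unadjusted p of 0.05 by the plain codes alone (2.89%), 59.4% had the same sign in the letter codes, with r = 0.27. Among the 1169 in the letter codes (7.37%), 55.7% had the same sign in the plain codes, with r = 0.05. The lists shared 67 genes, 14.6% of the plain and 5.73% of the letter list, of which 24 were higher in both, 30 lower in both and 13 opposite. The median standard error was 0.20 in the plain and 0.60 in the letter codes, beside median absolute differences of 0.13 and 0.43.

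Within the plain codes alone, 4 genes passed (0.0252%): Rps4l, Chil4, Sdc3 and Neat1. Within the letter codes alone, 15 passed (0.0946%): H19, Srl, Ak1, Cd74, Cybb, Serpinb3a, C4b, Hspa8, the Hspa8 pseudogenes Gm15459 and Gm8355, and Gm28439, Gm13340, Gm28661, Gm29216 and Gm28437. Apart from the genes already described these were chosen after their values were seen, and no gene passed in both forms. These counts are from 3 against 2 and 2 against 2 mice. A test of the difference between the forms called 0 genes by edgeR (0%), with a lowest adjusted p of 0.472, while 1436 genes (9.05%) had an unadjusted p under 0.05 and DESeq2 called 20. A gene that passed in 1 form is therefore not shown by edgeR to differ between them.

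Chil4 and Neat1 had opposite signs in the forms. Chil4, a chitinase-like protein gene of allergic and irritated epithelia, had 2.78, 2.90 and 2.56 CPM in O1, O2 and O3 against 7.45 and 7.45 CPM in Y1 and Y3, but 2.38 and 3.17 CPM in OF5 and OM8 against 1.05 and 1.23 CPM in YF5 and YM4. The letter-code values rest on few counts. The nuclear long noncoding RNA gene Neat1 had 209, 215 and 254 CPM in O1, O2 and O3 against 502 and 467 CPM in Y1 and Y3, and 853 and 1319 CPM in OF5 and OM8 against 767 and 373 CPM in YF5 and YM4. Its difference was -1.10 (adjusted p = 0.0258) in the plain and 0.97 in the letter codes. H19, an imprinted growth-restraining RNA, kept 1 sign: it had 26.8, 31.6 and 52.8 CPM in O1, O2 and O3, 57.0 and 51.5 CPM in Y1 and Y3, 10.7 and 12.9 CPM in OF5 and OM8, and 88.2 and 55.3 CPM in YF5 and YM4. It was -0.55 within the plain codes and -2.55 within the letter codes (adjusted p = 1.93e-09 there), and -1.35 (SE 0.48) over the 9 mice, where it did not pass. The complement gene C4b was higher in all 5 aged mice, with 10.2 to 25.3 CPM against 5.27 to 9.67 CPM in the young (0.89, SE 0.22, adjusted p = 0.544), and had a fold change of 0.56 on the log2 scale in the plain and 1.61 in the letter codes.

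**Figure D4:**
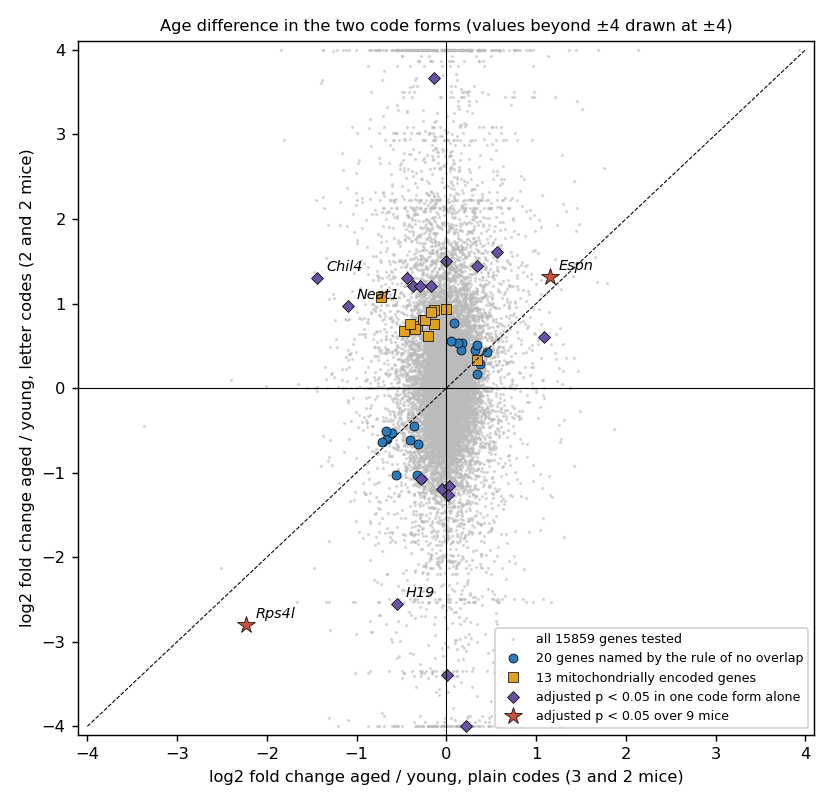
Log2 fold change of age in the plain codes (x axis, 3 aged and 2 young mice) against that in the letter codes (y axis, 2 and 2 mice) for 15859 genes (grey), with values beyond -4 or 4 drawn at that limit and the dashed line at equality. The grey cloud is wider in the letter codes, Rps4l and Espn (stars) lie near the dashed line, and 12 of 13 mitochondrially encoded genes (squares) lie in the upper left, where the plain value is negative and the letter value positive.

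Fitted age differences of mitochondrially encoded RNA were mostly of opposite sign in the forms. By edgeR, none of the 13 genes passed the adjusted threshold for a difference between the forms. The mitochondrial genome encodes 13 subunits of the respiratory chain, transcribed as long shared precursors, so the 13 values are not independent. Over the 9 mice all 13 genes were above 0, from 0.02 to 0.40 on the log2 scale, and 0 had an unadjusted p under 0.05. In the plain codes 12 of 13 were below 0, from -0.73 to 0.34 with a median of -0.24. None of these 13 had an unadjusted p under 0.05 there, beside 2.89% of all genes. In the letter codes 13 of 13 were above 0, from 0.33 to 1.08 with a median of 0.76. In the letter codes 11 had an unadjusted p under 0.05, beside 7.37% of all genes. The test of the difference between forms gave 9 of 13 an unadjusted p under 0.05, beside 9.05% of all genes, and a lowest adjusted p of 0.472. mt-Co1, a subunit of cytochrome c oxidase, had 476, 476 and 442 CPM in O1, O2 and O3 against 396 and 628 CPM in Y1 and Y3. In OF5 and OM8 it had 3389 and 2772 CPM against 2118 and 1203 CPM in YF5 and YM4, so all 4 letter-code mice were above all 5 plain-code mice. mt-Cytb, the cytochrome b gene, was -0.40 in the plain and 0.76 in the letter codes, and mt-Nd3 was the 1 gene with the same sign in both (0.34 and 0.33).

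As a share of protein-coding counts, these 13 genes took 0.723%, 0.673% and 0.659% in O1, O2 and O3 and 0.573% and 1.04% in Y1 and Y3, against 3.25% and 3.16% in OF5 and OM8 and 2.0% and 1.16% in YF5 and YM4. Both aged letter-code mice were above both young ones, and the 3 aged plain-code mice lay between the 2 young ones. The 5 pseudogenes that passed in the letter codes carry mitochondrial sequence on nuclear chromosomes: all words of 50 bases of Gm28439, Gm28661 and Gm28437, 97.1% of those of Gm29216 and 27.5% of those of Gm13340 are also in a mitochondrial transcript. How the counting assigned reads that match both is not given, so the values of the first 4 may not be separate from those of the mitochondrial genes, while most words of Gm13340 are not in those genes. Gm28661 had a log2 fold change of -0.37 in the plain and 1.20 in the letter codes, and Gm29216 of -0.17 and 1.21. Likewise 86.8% of the words of Gm15459 and 57.0% of those of Gm8355 are in Hspa8.

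**Figure D5:**
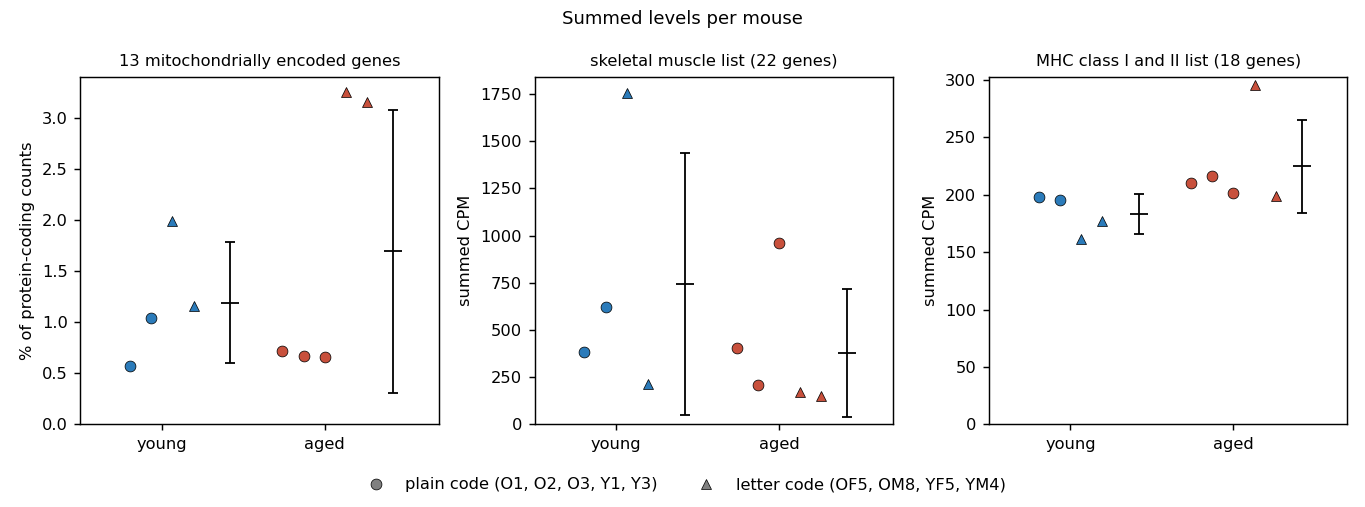
Share of the 13 mitochondrially encoded genes in protein-coding counts (percent) and summed CPM of the skeletal muscle and MHC lists, for young (blue) and aged (red) mice, 1 point per mouse, circles for plain and triangles for letter codes, with the mean and SD of each age. The mitochondrial share is above 3% only in OF5 and OM8, the muscle sum is highest in YF5 at 1753 CPM, and the MHC sums of the aged mice start at 199 CPM beside 198 CPM for the highest young mouse.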

How the data were processed

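Bulk mRNA libraries from 9 epithelial samples were analysed, with 5 stromal samples used only for the layer check. According to the methods, the authors aligned reads to GRCm38 with Rsubread, counted reads per gene with featureCounts, and deposited raw counts for 55291 gene symbols per sample. The strand setting, the treatment of multimapping reads and the annotation are not given in the sources used here. Of the symbols, 53292 were found in GENCODE M21, from which positions and types were taken.

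Testing used edgeR 4.0.16 (R 4.3.3) on the counts as deposited: genes kept by filterByExpr (minimum count 10), TMM normalization, a robust quasi-likelihood fit with age and code form as terms, and Benjamini-Hochberg adjustment over 15859 genes. CPM use TMM-adjusted library sizes, with TMM factors from 0.303 to 2.32. SE is the absolute log2 fold change over the square root of F. The same fit was run within each form and with an age by form interaction. Alternatives used DESeq2 1.42.0, limma 3.58.1 and the settings named under the dependence on processing. The fit was also run on counts simulated from the means and dispersions of these data, and the outcome is not described here.

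Named genes were every gene called by age, the 10 higher and 10 lower without overlap described in the text, up to 3 members of each list with the smallest p, the marker genes and the mitochondrially encoded genes. Where a list member beyond these or another gene is named, it was chosen after its values were seen. Members and lists were chosen with earlier results of these data known. The libraries come from separate mice, and no pair of replicates agreed within sampling noise (chi-square per degree of freedom at least 9.93 in 16 pairs). Total counts per sample ranged from 8217516 to 21867101, and intervals from counts cover counting error only.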

Additional observations from a re-analysis of the deposited data

Results flagged for a closer look

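Of 166 groups of 4 or 5 mice checked, 11 held a mouse whose gap to the nearest other mouse was large against the range of its group (Dixon's criterion at 95%), which is 6.63%, where chance flags about 1 in 20 groups. In 5 of the 11 the mouse was the aged mouse OF5. It had 113 CPM of Plxna1 beside 83.3 to 89.8 CPM in the other aged mice, 28.9 CPM of Ctsa beside 18.4 to 20.5 CPM, 41.1 CPM of Hdac5 beside 27.7 to 28.7 CPM and 19.4 CPM of H2-Ab1 beside 9.32 to 11.5 CPM. Its Creb3l1 level was low, at 2.09 CPM beside 5.59 to 6.73 CPM. The aged mouse O2 had 12.3 CPM of Flg2 beside 5.52 to 6.55 CPM.

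Among young mice, Y3 had 28.8 CPM of Sprr1b beside 39.3 to 40.0 CPM, 8.75 CPM of Flt1 beside 5.78 to 6.14 CPM, and 0.0748 CPM of Igkc, where the other 3 had 0. Y1 had 57.8 CPM of Krt6a beside 18.7 to 22.6 CPM. YF5 had 53.4 CPM of Ank beside 61.1 to 62.2 CPM. No mouse was left out of the main values for this.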

How the results depend on the processing

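The 2 genes called for age became 28 with DESeq2 (9 higher, 19 lower), 36 with no filter on low counts, 12 with limma-voom, 0 without the code form as a covariate, and 4 or 15 within the plain or letter codes. Leaving out each mouse gave 0 to 3 calls: 0 without Y1 and 1 without O1. Rps4l was not tested with at least 10 counts in every sample or among protein-coding genes, where Espn and Sdc3 passed. The 509 genes at an unadjusted p under 0.05 became 962 with no filter, 241 without the covariate, 333 with the skeletal muscle level as a covariate and 1169 in the letter codes, and 389 to 960 when a mouse was left out, with 960 without Y3. The difference between the forms called 20 genes with DESeq2 and 27 with no filter, and 0 whichever mouse was left out. DESeq2 called 29 genes in the plain codes. Added after seeing the data, leaving out a mouse within a form gave 0 to 3 calls in the plain codes (0 without O1 or Y1 and 1 without O2 or Y3) and 45 to 132 in the letter codes (62 without OF5, 45 without OM8, 63 without YF5 and 132 without YM4), where a lone mouse is assumed to vary like the others. Leaving out a mouse gave 913 to 2896 calls for the form itself, with 1188 without O2, 1308 without OF5, 913 without OM8 and 1436 without Y1. The cause of these changes was not tested. All 22 genes named by the first rules kept their direction in each setting that tested them. Of these, 20 were chosen for lack of overlap and 1 sign in both forms, and Rps4l and Espn did not overlap in either form. Their direction within the forms and without single mice was thus largely set beforehand, and is no separate support.

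Some other log2 fold changes turned sign. In the plain codes Krt5 was 0.32, Hspa8 0.026, mt-Co1 -0.14, mt-Cytb -0.40, Gm28661 -0.37 and Gm29216 -0.17, and in the letter codes Chil4 was 1.30 and Neat1 0.97. Without the covariate Krt5 was 0.11, Neat1 0.11 and Rps4x 0.0065. Without single mice Krt5 ranged from -0.39 to 0.13, Mki67 from -0.30 to 0.066, mt-Cytb from -0.13 to 0.40 and Rps4x from -0.12 to 0.022. No paired analysis was possible because the numbers in the codes name different mice and pair none. Letter-code values rest on 1042388 to 1433837 protein-coding counts, and 3 counts correspond to 0.594 to 1.05 CPM there, so differences below that level were not detectable at this depth.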
